A study of Mus musculus with 10 samples.

Results

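Itaconate and citrate cycle genes were followed as a group of 9: Acod1, the mitochondrial enzyme that makes itaconate, and 8 genes for enzymes of the citrate cycle, isocitrate dehydrogenases, and the export and cleavage of citrate (Cs, Idh3a, Ogdh, Mdh2, Idh1, Idh2, Slc25a1 and Acly). They were picked by symbol from the 56980 genes of the count table, and all 9 had enough counts to be tested. RNA-seq was carried out on cultured mouse macrophages, with 5 libraries whose Jaml gene, which encodes junctional adhesion molecule-like protein, was intact (WT) and 5 with the gene targeted (KO). Cells of both genotypes were given lipopolysaccharide (LPS, a bacterial ligand of TLR4) for 8 h (100 ng/ml) to prime the NLRP3 inflammasome, followed by 30 min of ATP (5 mM) to trigger it. Every difference below is therefore between 2 genotypes of stimulated cells, and no unstimulated level was analysed here. In the titles the targeted group is a macrophage knockout, whereas its genotype tag reads knockdown. The labels name no Cre line, strain, age or source organ, and no label ties a library to its own animal or culture. The p-values therefore measure only how far these libraries spread, which may be technical. The KO count columns carry the heading SI, which no label explains, and were assigned to KO by elimination, so each direction rests on that assignment.

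In a resting cell, citrate synthase joins acetyl-CoA and oxaloacetate into citrate, which is rearranged into isocitrate by way of cis-aconitate and which the later enzymes of the cycle oxidise back to oxaloacetate. Macrophages exposed to LPS strongly induce Acod1, also known as Irg1, whose enzyme removes a carboxyl group from cis-aconitate to give itaconate, a metabolite that inhibits succinate dehydrogenase and modifies KEAP1. Citrate can also leave the mitochondrion through the carrier encoded by Slc25a1 and be split in the cytosol by ATP citrate lyase (Acly) into acetyl-CoA for lipid synthesis and protein acetylation.

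Acod1 was the 1 gene of the 9 that fell, and Idh2 the riser with the smallest p. The DNA just before their RefSeq starts is shown because the windows differ in base composition and in the short motifs they hold. Both come from the RefSeq promoter table for GRCm38.p6, read on the strand of the gene from 250 bases before the start and stopping 22 bases (Acod1) or 29 bases (Idh2) short of it. Acod1 is at chr14:103046762-103046989 on the plus strand, and Idh2 is at chr7:80115380-80115600 on the minus strand. Capitals mark exact matches to a motif on the strand shown. In the GENCODE annotation of the same build, the last 13 bases of each run lie inside an exon. Those bases hold the whole TATAAA of Acod1, and the whole GGGCGG and part of the CCAAT of Idh2. RefSeq and GENCODE thus place these starts differently.
Acod1: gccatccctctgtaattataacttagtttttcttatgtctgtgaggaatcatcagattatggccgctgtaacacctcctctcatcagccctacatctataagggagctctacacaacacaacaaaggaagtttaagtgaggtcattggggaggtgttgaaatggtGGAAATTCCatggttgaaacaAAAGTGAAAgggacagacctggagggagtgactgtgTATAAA
Idh2: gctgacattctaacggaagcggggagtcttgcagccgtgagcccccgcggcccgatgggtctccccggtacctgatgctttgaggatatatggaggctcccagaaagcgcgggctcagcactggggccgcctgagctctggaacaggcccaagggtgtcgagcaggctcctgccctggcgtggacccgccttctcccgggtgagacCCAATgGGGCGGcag

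Of the 9 genes, 8 had a window in that table, all but Idh3a. A set of 8 motifs, chosen with these sequences in view, was searched on both strands of the 250 bases before the start, in 32851 windows of all genes. In the Acod1 window a TATA box, TATAAA, began 28 bases before the start, and 12.4% of all windows held one. An interferon regulatory factor core, AAANNGAAA, began 64 bases before the start (9.37% of windows), and a kappa-B type motif, GGAANNNCC, began 85 bases before it (15.7% of windows), a pattern that these letters match on either strand. The window also held a CCAAT box (33.8% of windows), left in lower case. Its GC content was 44.4%, at percentile 22.1 of all windows, with 2 CpG dinucleotides against a median of 6. The Idh2 window had 67.2% GC and 17 CpG, and held CCAAT and the GC box GGGCGG (32.7% of windows). No window of the other 7 genes held TATAAA, and their GC content ran from 50% to 74%. The Cs window, however, held both AAANNGAAA and GGAANNNCC as well, and GGAANNNCC was also in the Mdh2 window and an Idh1 window. The cAMP element TGACGTCA (1.55% of windows) was found for Ogdh and Mdh2. The sterol element TCACNCCAC (1.05% of windows) and the NRF1 type motif (3.74% of windows) were found in no window of the 8 genes. The matches printed in capitals do not overlap each other. These are letter matches, and no binding or chromatin was measured.

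Library size did not track genotype: totals ran from 19319512 to 22766319 counts, with an exact permutation p of 0.817 (two-sided, and 0.00794 is the lowest p that 5 against 5 can reach). The TMM factor, which corrects for RNA composition, averaged 0.961 in WT and 1.04 in KO with no overlap (exact permutation p = 0.00794, Benjamini-Hochberg adjusted 0.0317 over 4 library measures). Jaml could not check the labels, with 2 counts in WT 1, 2 in KO 4 and 0 elsewhere. All 8 macrophage markers were tested, 2 of them higher and 2 lower in KO, with log2 fold changes from -1.62 to 0.16. They summed to 24059 to 25618 CPM (the count scaled by library size and TMM factor) in WT and 23076 to 25066 CPM in KO, mostly from Lyz2 (mean 18210 CPM in WT and 17531 CPM in KO). Of 5 T cell and 5 B cell markers none had enough counts to be tested, with sums of at most 0.388 and 1.23 CPM and Cd3e at 0 in all libraries. The 7 neutrophil markers, 3 of them tested and 2 higher in KO (S100a8 by 0.56 on the log2 scale, edgeR adjusted p = 0.000142), summed to 69.2 to 78.3 CPM in WT and 72.2 to 78.4 CPM in KO, mostly from Csf3r (-0.14, adjusted p = 0.0621, and 0.0418 to 0.0489 without KO 4 or WT 2), with Ly6g, S100a9 and Mpo at no more than 3 counts in any library. Of 5 dendritic cell markers 2 were tested, with sums of 1.66 to 3.08 CPM in WT and 1.31 to 2.42 CPM in KO and Xcr1 and Cd209a at 0 in all libraries. Mast cell markers, 4 of 6 tested and 3 lower, summed to 7.27 to 13.1 CPM in WT and 4.23 to 5.21 CPM in KO. The 3 endothelial markers, 1 of which was lower, summed to 22.8 to 28.7 CPM in WT and 10.3 to 12.2 CPM in KO. That sum came mostly from Kdr, with means of 23.1 CPM in WT and 8.43 CPM in KO. Cdh5 did not pass (-0.03, edgeR adjusted p = 0.931), and Pecam1, with at most 6 counts in any library, was not tested. Of 6 mesothelial and fibroblast markers 2 were higher and 1 lower. They summed to 351 to 393 CPM in WT and 364 to 470 CPM in KO (469.6 at most). Col1a1 made up most of that sum (mean 245 CPM in WT and 318 CPM in KO). The log2 fold changes of the 6 ran from -2.69 to 0.37 with a median of -0.50, and only 2 were above 0. The part of these other cells in the differences below was not tested. In bulk RNA, fewer cells of a type and less RNA per cell cannot be told apart.

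KO macrophages held less Acod1 RNA and more RNA of both NADP-dependent isocitrate dehydrogenases, Idh1 and Idh2, while the genes for the entry enzyme of the cycle and for citrate export did not pass the test. In edgeR's quasi-likelihood test at an adjusted p under 0.05, 5 of the 9 genes differed, 4 higher and 1 lower in KO. Over all 14436 genes tested 29.1% differed, 14.1% higher and 15.0% lower. The same 5 genes had KO values wholly outside the range of the WT values, as had 23.3% of all tested genes. The median log2 fold change of the 9 genes was 0.08, against 0.01 for all genes tested. The plot of values by library shows each gene.

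**Figure D1:**
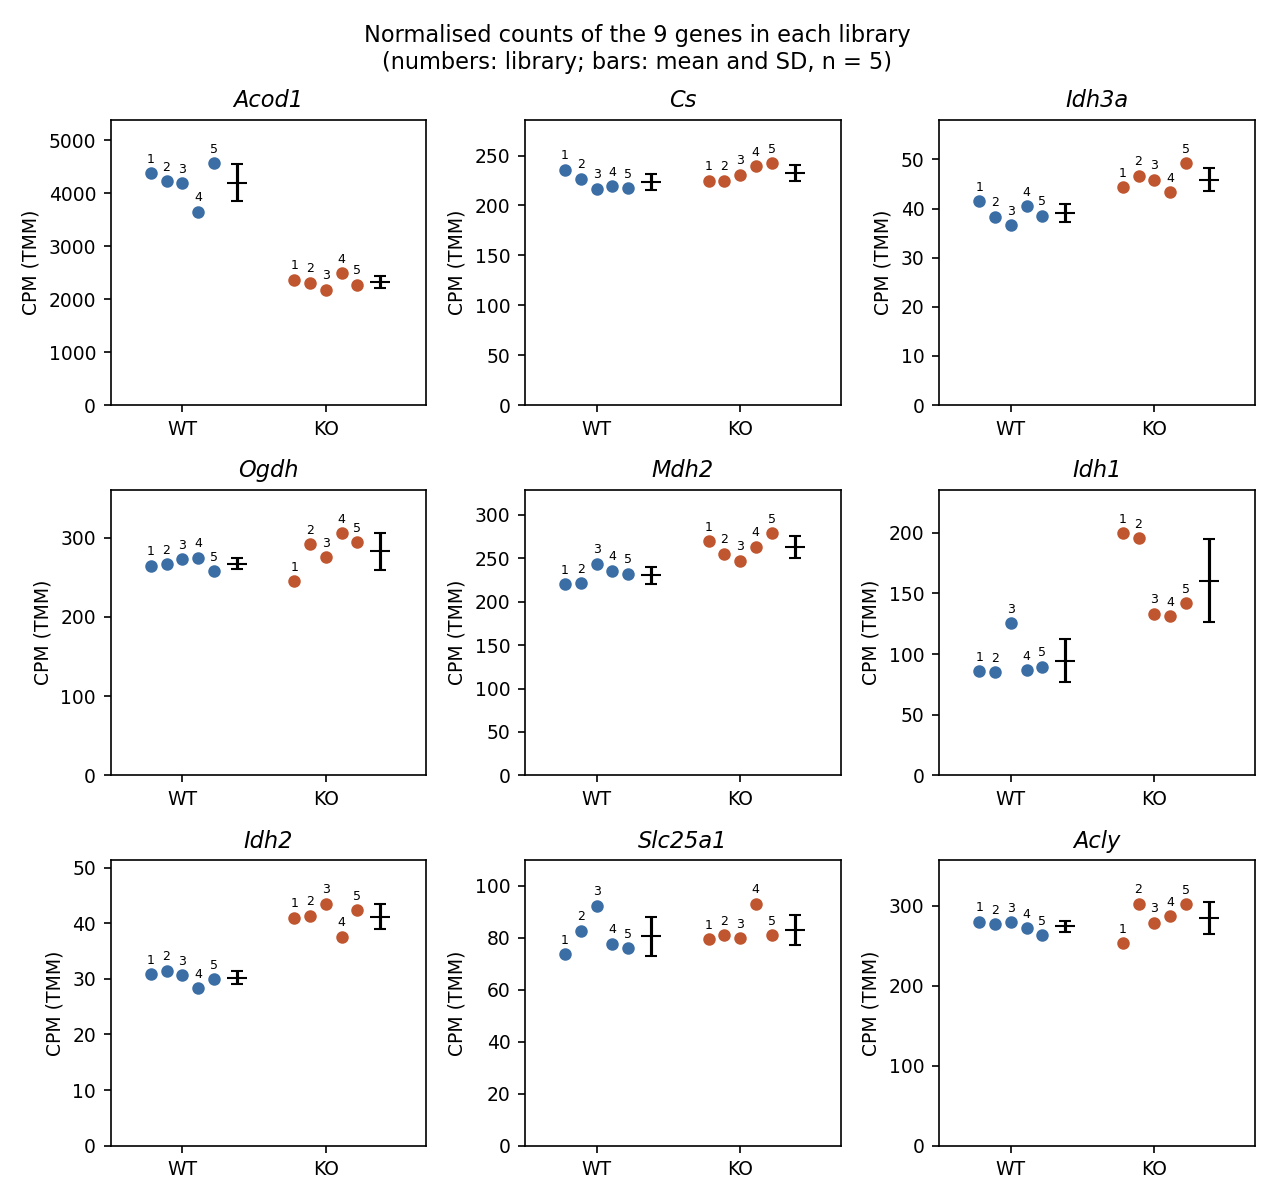
Each panel plots one gene's TMM-scaled CPM (vertical axis from 0) in the 5 WT libraries (blue) and 5 KO libraries (orange), numbered by library, with the mean and SD as a bar. Acod1 lay between 3649 and 4565 CPM in WT and between 2178 and 2489 CPM in KO, and the groups also separated for Idh3a, Mdh2, Idh1 and Idh2.

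Acod1 (ENSMUSG00000022126, listed at chromosome 14, 103284413 to 103294009) was one of the most abundant transcripts, ranking 19 by CPM among the tested genes. Its level in WT 1 to WT 5 was 4377, 4224, 4182, 3649 and 4565 CPM, and in KO 1 to KO 5 it was 2363, 2306, 2178, 2489 and 2269.7 CPM. All KO libraries were low and close together, and the lowest WT library, WT 4, was still well above the highest KO library, KO 4. The WT mean was 4199 ± 342 CPM and the KO mean 2321 ± 115 CPM (SD, n = 5 each), 1.81-fold lower. The log2 fold change was -0.86 ± 0.06 (SE; 95% interval -0.98 to -0.73), with an edgeR adjusted p of 9.2e-07. Acod1 took 0.403% of all counts in WT and 0.241% in KO. Across 20 alternative settings its log2 fold change stayed between -0.89 and -0.74 and passed the test in each.

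Among the enzymes of the cycle itself, Idh3a and Mdh2 rose and Cs and Ogdh did not pass the test. Idh3a (ENSMUSG00000032279, chromosome 9, 54493618 to 54511945) encodes the catalytic subunit of the NAD-dependent isocitrate dehydrogenase. It measured 41.5, 38.3, 36.7, 40.5 and 38.5 CPM in WT 1 to WT 5 and 44.4, 46.7, 45.8, 43.3 and 49.2 CPM in KO 1 to KO 5. The lowest KO library, KO 4, lay just above the highest WT library, WT 1, so the groups did not overlap but came close. The log2 fold change was 0.23 ± 0.05 (SE), 1.17-fold, with an edgeR adjusted p of 0.00372. The partner subunits Idh3b (-0.01 ± 0.04, adjusted p = 0.926) and Idh3g (0.01 ± 0.07, adjusted p = 0.925), named after their values were seen, did not pass.

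Mdh2 (ENSMUSG00000019179, chromosome 5, 135807334 to 135819252) encodes mitochondrial malate dehydrogenase, which closes the cycle by remaking oxaloacetate. It measured 220.3, 221, 243.7, 236 and 232 CPM in WT and 270.02, 255, 247, 264 and 279 CPM in KO, in library order. WT 3 was the highest WT library and KO 3 the lowest KO library, and the gap between them was small. The mean went from 231 ± 9.96 to 263 ± 12.3 CPM (SD, n = 5 each), a log2 fold change of 0.19 ± 0.04 (1.14-fold, edgeR adjusted p = 0.00595).

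Cs (ENSMUSG00000005683, chromosome 10, 128173603 to 128198348) encodes citrate synthase. Its levels were 236, 227, 217, 219 and 218 CPM in WT and 225, 225, 231, 239.6 and 242 CPM in KO, and the groups overlapped, with WT 1 among the highest values. The log2 fold change was 0.06 (95% interval -0.02 to 0.14, edgeR adjusted p = 0.286). Genes that overlap Cs in the table held at most 52 counts over all libraries, against 46909 for Cs.

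Ogdh (ENSMUSG00000020456, chromosome 11, 6241633 to 6306642) encodes the first component of the 2-oxoglutarate dehydrogenase complex. It measured 264, 267, 273, 275 and 258 CPM in WT and 245, 292, 276, 305 and 295 CPM in KO. KO 1 was the lowest of all 10 libraries, and the other KO libraries lay above every WT library. With all libraries the log2 fold change was 0.08 (95% interval -0.04 to 0.20) and the edgeR adjusted p was 0.304. Without KO 1 it was 0.13 with an adjusted p of 0.0252, so 1 library decided whether Ogdh passed. The other components of the complex, Dlst (0.09 ± 0.10, adjusted p = 0.590, named after its value was seen) and Dld (-0.06 ± 0.04, adjusted p = 0.268), did not pass.

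The enzymes encoded by Idh1 (cytosol and peroxisome) and Idh2 (mitochondrion) convert isocitrate to 2-oxoglutarate while making NADPH, and both genes rose. Idh2 (ENSMUSG00000030541, chromosome 7, 79744594 to 79765140) measured 30.9, 31.5, 30.7, 28.3 and 29.9 CPM in WT and 41.0, 41.3, 43.5, 37.6 and 42.3 CPM in KO. The values were tight within each genotype, and the groups stood well apart. The mean went from 30.2 ± 1.23 to 41.2 ± 2.21 CPM (SD, n = 5 each), 1.36-fold, a log2 fold change of 0.45 ± 0.05 (95% interval 0.34 to 0.55, edgeR adjusted p = 3.77e-05). Its GC-rich promoter window is the lower of the pair printed above.

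Idh1 (ENSMUSG00000025950, chromosome 1, 65197775 to 65225659) had the largest rise of the 9 genes and also the widest spread. It measured 86.0, 85.2, 126, 86.7 and 89.5 CPM in WT 1 to WT 5 and 199, 195, 133, 131 and 142 CPM in KO 1 to KO 5. WT 3 stood far above the other WT libraries and close to the lower KO libraries, while KO 1 and KO 2 stood far above the other KO libraries. The groups did not overlap. The mean went from 94.6 ± 17.4 to 160.2 ± 34.2 CPM (SD, n = 5 each), 1.69-fold, a log2 fold change of 0.76 ± 0.15 (95% interval 0.43 to 1.09, edgeR adjusted p = 0.0025). Without WT 3 it was 0.90 (adjusted p = 0.000661). Without KO 1 and KO 2 it was 0.52 ± 0.12 (adjusted p = 0.0136).

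The uneven spread of Idh1 was not shared by Idh2. Per gene length, the ratio of Idh1 to Idh2 within a library was 3.19, 3.09, 4.68, 3.51 and 3.42 in WT 1 to WT 5. In KO 1 to KO 5 it was 5.56, 5.40, 3.50, 3.99 and 3.83. The ratio was high in WT 3, KO 1 and KO 2, and the genotypes overlapped.

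Neither gene of citrate export and cleavage passed the test. Slc25a1 (ENSMUSG00000003528, chromosome 16, 17743087 to 17746083), which encodes the mitochondrial citrate carrier, measured 73.7, 82.7, 92.3, 77.7 and 76.1 CPM in WT and 79.5, 81.1, 79.8, 93.1 and 80.9 CPM in KO. The KO libraries other than KO 4 lay within the range of the WT libraries. The log2 fold change was 0.04 (95% interval -0.11 to 0.19, edgeR adjusted p = 0.697), and it was -0.0013 without KO 4.

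Acly (ENSMUSG00000020917, chromosome 11, 100367179 to 100418826) measured 280.05, 277, 279, 272 and 263 CPM in WT and 253, 303, 279, 287 and 302 CPM in KO. KO 1 was the lowest of the 10 libraries and KO 2 and KO 5 the highest, so the groups overlapped. The log2 fold change was 0.05 (95% interval -0.05 to 0.16, edgeR adjusted p = 0.461). Without KO 1 and KO 3 it was 0.11 with an adjusted p of 0.0423.

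**Figure D2:**
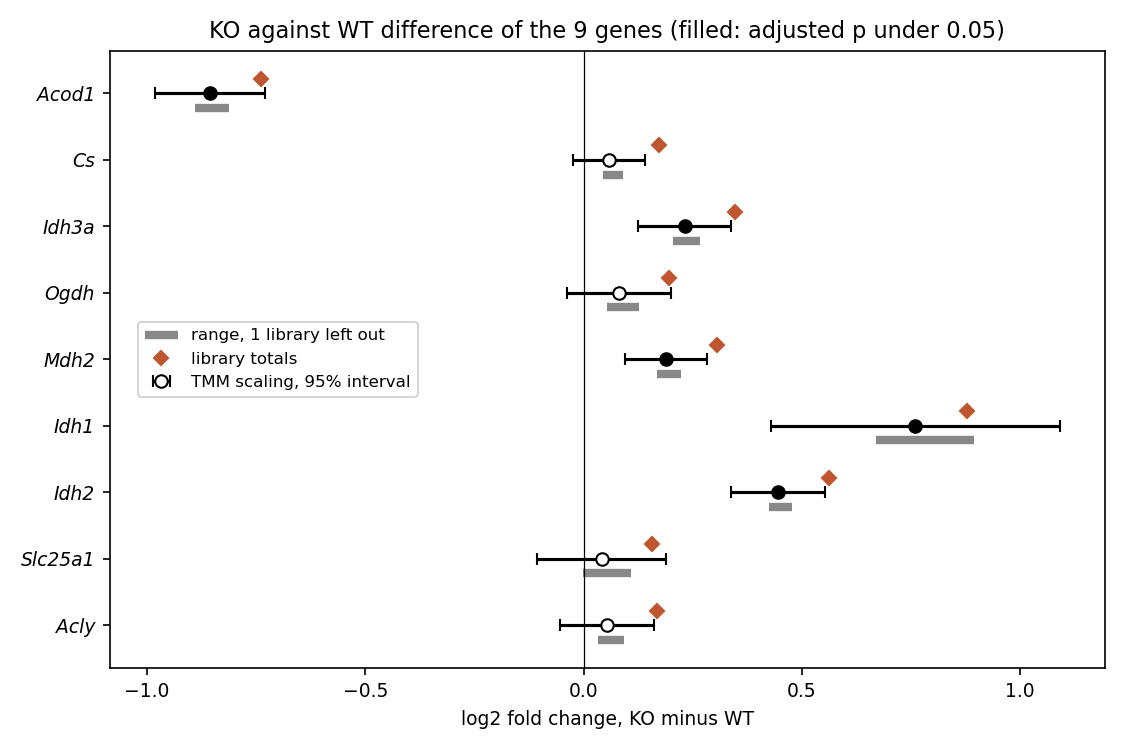
Log2 fold change, KO minus WT, of each of the 9 genes (horizontal axis): circles with 95% intervals are from the TMM-scaled edgeR fit (filled where the adjusted p was under 0.05), grey bars give the range when 1 library was left out, and diamonds use library totals alone. The circle of Acod1 is the only one left of 0, at -0.86, and every diamond is shifted to the right of its circle.

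The smaller rises depended on how libraries were scaled. With library totals in place of TMM, the median over all genes was 0.12 on the log2 scale rather than 0.01. Genes called over the whole table were then 4231 higher and 1361 lower, against 2036 higher and 2164 lower with TMM. The count among the 9 genes then went from 5 to 8, 7 higher and 1 lower. Cs (0.17, edgeR adjusted p = 0.00372), Ogdh (0.19, adjusted p = 0.00622) and Acly (0.17, adjusted p = 0.00789) were added, and Slc25a1 still did not pass. Mdh2 was at 0.30 with library totals. Among genes named below, the rises of Suclg1, Sdhd, Sdhc, Aco1, Pdk1, Pdhb, Pdha1, Me1, Got2, Slc25a10, Hspd1, Lonp1, Vdac1 and Tomm40 were also over 1.5 times larger on the log2 scale. All values in the text are relative to the TMM scaling unless stated.

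A ratio of each gene to Cs inside the same library needs no scaling. Per gene length, Acod1 stood at 42.5 ± 3.53 times Cs in WT (range 37.6 to 47.4) and at 22.6 ± 1.24 times Cs in KO (range 21.2 to 23.8; SD, n = 5 each), with no overlap. Idh2 stood at 0.155 ± 0.0061 in WT and 0.203 ± 0.0142 in KO, again with no overlap. For Idh1 the ranges overlapped, at 0.479 to 0.759 in WT and 0.718 to 1.16 in KO. They overlapped for Idh3a (mean 0.153 and 0.172), Mdh2 (1.19 and 1.30), Ogdh, Slc25a1 and Acly as well.

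Levels of different genes were compared as CPM per kilobase of the gene length behind the deposited FPKM. Acod1 RNA was far above the rest, at 1601 ± 130 CPM per kilobase in WT and 885 ± 43.9 in KO (SD, n = 5 each), as the plot of levels per gene length shows. In WT it was followed by Mdh2 (44.7), Cs (37.7), Acly (33.5), Ogdh (32.7), Slc25a1 (21.3), Idh1 (20.9), Idh2 (5.85) and Idh3a (5.75). The neighbouring pairs Acly and Ogdh, Slc25a1 and Idh1, and Idh2 and Idh3a overlapped between libraries and so have no clear order. In KO, Idh1 came to 35.4 CPM per kilobase and moved from place 7 to place 4. Its range there, 29.0 to 44.1, spanned those of Cs, Acly and Ogdh. Idh2 (7.28 to 8.42) and Idh3a (6.38 to 7.25) no longer overlapped in KO.

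**Figure D3:**
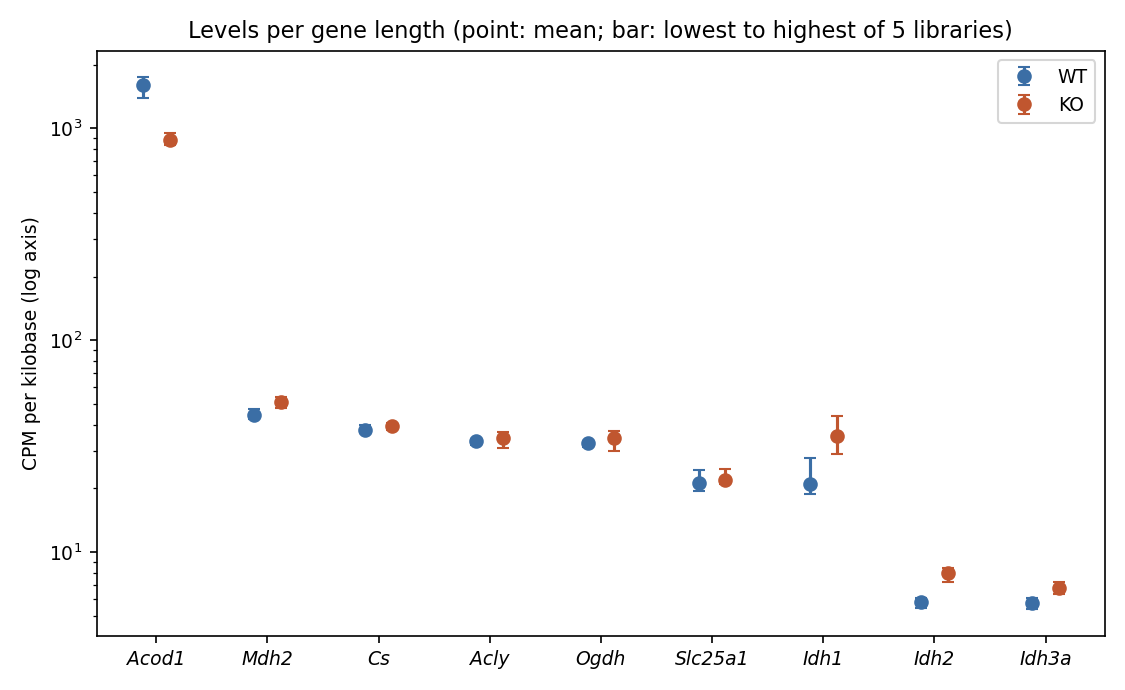
Levels of the 9 genes in CPM per kilobase of gene length on a log axis, ordered by the WT mean, with WT in blue and KO in orange; points are means and bars run from the lowest to the highest of 5 libraries. Acod1 is at 1601 in WT and 885 in KO, and the other genes lie between 5.75 and 50.9.

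Genes whose pattern over the 10 libraries was most like that of Acod1 were sought among 5000 with mean log2 CPM of at least 5. The measure was the root mean square difference of log2 CPM centred on each gene's mean. The members, all genes of the pathway and marker lists, and predicted genes without a full name were left out. Listed genes such as Irf1, Slc25a22 or Scd2 could therefore not be named here. The nearest were Ccrl2, an atypical chemokine receptor (0.0524), Stard3, a cholesterol transfer protein of endosomes (0.0672), Clic4, a chloride channel family protein (0.0735), Adora2a, an adenosine receptor (0.0736), and Ccl3, a chemokine (0.0771). Their log2 fold changes lay between -0.92 and -0.80, a closeness to Acod1 that the measure itself selects for, as it includes the genotype difference. Idh2 was nearest to Pdia4, a protein disulfide isomerase of the endoplasmic reticulum (0.0474), and Mdh2 to Bin1 (0.0405). For Idh3a it was Impdh2-ps (0.0496), a pseudogene whose reads may be shared with its parent gene. For Cs it was Hspa4 (0.0255), for Ogdh Arfgef2 (0.0288), for Acly Sec13 (0.0286) and for Slc25a1 Ccdc97 (0.0581). Among the genes searched, the nearest to Idh1, Igfbp7, was far less close, at 0.177.

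A list of 13 genes held other enzymes of the cycle together with the cytosolic Aco1, which lies outside it. Of the 13, 5 rose, 0 fell and 8 did not pass, with a median log2 fold change of 0.09. The share called was 38.5%, against 29.1% of all tested genes. With a filter of at least 50 counts in 5 libraries it was 38.5%, against 35.0% of all genes. Fh1 (fumarase) rose from a WT mean of 30.7 ± 0.546 CPM to a KO mean of 37.2 ± 1.61 CPM (SD, n = 5 each), a log2 fold change of 0.28 ± 0.04 (edgeR adjusted p = 0.000407). Suclg1, a subunit of succinyl-CoA ligase, rose by 0.21 on the log2 scale (adjusted p = 0.0045). Succinate dehydrogenase, the enzyme that itaconate inhibits, was covered by all its subunits: the membrane anchors Sdhd (0.17, adjusted p = 0.0101) and Sdhc (0.12, adjusted p = 0.0241) rose. Its catalytic subunits Sdha (0.07, adjusted p = 0.204) and Sdhb (0.07, adjusted p = 0.326, named after its value was seen) did not pass. Sdha had an adjusted p of 0.0288 without KO 1, and Sdhc one of 0.0666 without KO 1 and KO 3 and of 0.1004 without KO 1 and KO 2. Aco1, which also serves as an iron-regulatory protein, rose (0.18 ± 0.06, adjusted p = 0.0282), with an adjusted p of 0.0605 to 0.0645 when KO 2, KO 4 or KO 5 was left out. With library totals 9 of the 13 (69.2%) were called, all higher. Over all genes 38.7% were then called, 75.7% of them higher.

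The entry of pyruvate into mitochondria and into the cycle was covered by 13 genes. Of these 4 rose, 0 fell and 9 did not pass, with a median of 0.12. The share called, 30.8%, was near the 29.1% of all tested genes. Pcx (pyruvate carboxylase), which refills oxaloacetate, changed most: it measured 19.8, 20.8, 21.6, 21.4 and 20.4 CPM in WT and 32.9, 36.7, 37.95, 37.1 and 37.8 CPM in KO. KO 1 was the lowest KO library and still far above every WT library. The log2 fold change was 0.81 ± 0.05 (edgeR adjusted p = 5.05e-07). Pdk1, a kinase that inactivates pyruvate dehydrogenase (0.22, adjusted p = 0.00505), and the enzyme's own subunits Pdhb (0.14, adjusted p = 0.0164) and Pdha1 (0.12, adjusted p = 0.0165) rose. The Pdha1 call was lost with the replicate number as a block (0.0609). Dlat (0.10, adjusted p = 0.125, and 0.0387 without WT 1) and the pyruvate carrier subunit Mpc2 (0.18, adjusted p = 0.0795) did not pass. With library totals 8 of the 13 (61.5%) were called, all higher, against 38.7% of all genes.

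**Figure D4:**
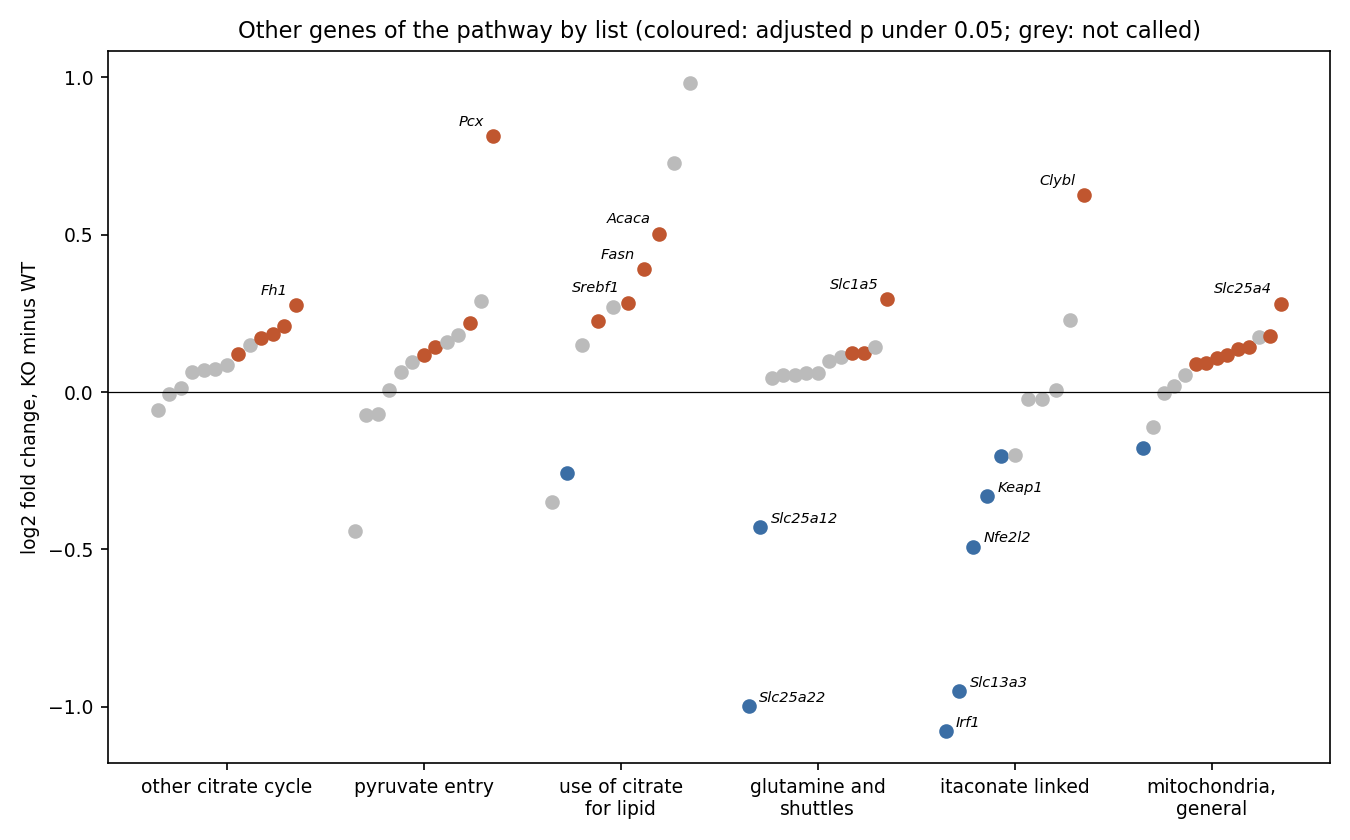
Log2 fold change, KO minus WT (vertical axis), of each tested gene in 6 lists around the 9 genes; orange and blue points passed an adjusted p under 0.05 in edgeR (higher and lower in KO), grey points did not, and called genes with larger changes are named. Irf1 at -1.08 and Slc25a22 at -0.998 are the lowest points and Pcx at 0.81 is the highest called point.

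A list of 10 genes around cytosolic acetyl-CoA and fatty acid synthesis held enzymes that use acetyl-CoA or act on its lipid products, suppliers of acetyl-CoA or NADPH (Acss2, Me1) and transcription factors (Srebf1, Srebf2). Of these, 4 rose, 1 fell and 5 did not pass, with a median of 0.28. The calls were 50% of the list, against 29.1% of all tested genes. Acaca (acetyl-CoA carboxylase) went from 36.1 ± 2.23 to 51.2 ± 4.46 CPM (SD, n = 5 each), a log2 fold change of 0.50 ± 0.07 (edgeR adjusted p = 0.000153). Fasn (fatty acid synthase) went from 107 ± 8.24 to 139.9 ± 13.9 CPM, 0.39 ± 0.07 (adjusted p = 0.00194). Srebf1, a transcription factor of lipid synthesis, rose by 0.28 (adjusted p = 0.00017). Me1 (malic enzyme, 0.23, adjusted p = 0.037) rose and Acss2, which makes acetyl-CoA from acetate, fell by 0.26 (adjusted p = 0.0156). The Me1 call was lost without WT 3, WT 4, WT 5, KO 1 or KO 3 (adjusted p = 0.0555 to 0.0796). The Acss2 call was lost without WT 3 or WT 5 (0.0505 to 0.0519). That leaves 3 calls (30%) when WT 3 or WT 5 is out, against 27.5% and 26.4% of all genes. With library totals Acss2 was at -0.14 and not called (adjusted p = 0.126), and the list had 6 genes higher and 0 lower. Those calls were 60% of the list, against 38.7% of all genes. Without KO 1 and KO 3, Me1 was at 0.15 (adjusted p = 0.182). Srebf2 did not pass, at 0.15 (adjusted p = 0.138). The desaturase gene Scd2 had the largest estimate, 0.98 ± 0.37, but was uneven: KO 1 and KO 2 measured 264 and 249.6 CPM and the other KO libraries 85.2 to 108 CPM. Its adjusted p was 0.0658 with all libraries and 0.0363 to 0.0477 without KO 4 or KO 5. Without KO 1 and KO 2 its log2 fold change was 0.25 (adjusted p = 0.573).

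Glutamine entry and the mitochondrial shuttles were covered by 13 genes. Of these 3 rose, 2 fell and 8 did not pass, with a median of 0.06. Called genes made up 38.5%, against 29.1% of all tested genes. Slc25a22, a mitochondrial glutamate carrier, measured 70.4, 78.7, 76.6, 71.5 and 73.5 CPM in WT and 42.1, 36.5, 35.9, 40.4 and 30.7 CPM in KO. The highest KO library, KO 1, was far below the lowest WT library, and the log2 fold change was -0.998 ± 0.076 (edgeR adjusted p = 2.21e-06). Slc25a12, an aspartate and glutamate carrier of the malate-aspartate shuttle, fell from 81.9 ± 4.62 to 60.9 ± 3.17 CPM (SD, n = 5 each; -0.43 ± 0.05, adjusted p = 6.37e-05). Slc1a5, a glutamine transporter of the plasma membrane, rose from 41.2 ± 1.88 to 50.5 ± 0.954 CPM (0.29 ± 0.04, adjusted p = 0.000187). Got2 (0.12, adjusted p = 0.0293) and the dicarboxylate carrier Slc25a10 (0.12, adjusted p = 0.0473) also rose. Got2 was not called without KO 4 or KO 5 (adjusted p = 0.0639 to 0.0662). Nor was Slc25a10 without any 1 of WT 2, WT 4, WT 5, KO 2, KO 3, KO 4 or KO 5 (0.0612 to 0.102). With all libraries the Slc25a10 call was also lost with DESeq2-type size factors (0.0559), with DESeq2 (0.0529) and without a filter (0.0524). It was lost with the replicate number as a block too (0.0839). The calls left without KO 4 or KO 5 were 3 (23.1%), against 27.2% and 25.8% of all genes. Glud1 (glutamate dehydrogenase) did not pass, at 0.04 (adjusted p = 0.432), nor did the 2-oxoglutarate carrier Slc25a11, at 0.06 (adjusted p = 0.292). With library totals 10 of the 13 (76.9%) were called, 8 higher and 2 lower, against 38.7% of all genes.

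Genes tied to itaconate by control, transport or downstream response formed a list of 13. Sucnr1 and Oxgr1, receptors for succinate and for itaconate or 2-oxoglutarate, had 0 counts in every library, where a floor of 3 counts would be 0.132 to 0.155 CPM (counting error only). Of the 11 tested, 1 rose, 5 fell and 5 did not pass, with a median of -0.20. With library totals 2 were higher and 4 lower. Either way 54.5% were called, against 29.1% of all genes with TMM and 38.7% with library totals. Irf1, a transcription factor induced by interferon, measured 89.0, 80.2, 82.4, 84.2 and 85.7 CPM in WT and 39.7, 41.7, 37.6, 47.3 and 33.6 CPM in KO. The groups stood far apart, with a log2 fold change of -1.08 ± 0.08 (edgeR adjusted p = 1.48e-06). Nfe2l2, which encodes NRF2, fell from 372 ± 13.4 to 265 ± 12.3 CPM (SD, n = 5 each; -0.49 ± 0.04, adjusted p = 3.94e-06), and its inhibitor Keap1 fell by 0.33 on the log2 scale (adjusted p = 0.0187). The Keap1 call was lost with library totals (adjusted p = 0.0738), without KO 1 and KO 3 (0.0828) and without KO 1 and KO 2 (0.0554).

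Of 3 NRF2 target genes on the list, Hmox1 (heme oxygenase) fell from 2951 ± 86.8 to 2565 ± 106 CPM (SD, n = 5 each; -0.20 ± 0.04, edgeR adjusted p = 0.00125), and was at -0.087 with library totals. Gclm (-0.02 ± 0.10, adjusted p = 0.912) and Nqo1 (0.23 ± 0.15, adjusted p = 0.304, named after its value was seen) did not pass. Atf3, a stress-induced transcription factor, was at -0.20 (adjusted p = 0.142), and at an adjusted p of 0.0233 without KO 5. The remaining called genes of the list, Clybl and Slc13a3, were low in abundance and moved in opposite directions. Abcg2, another transporter gene on the list, did not pass (-0.02, adjusted p = 0.871, named after its value was seen). Clybl, the citramalyl-CoA lyase of itaconate breakdown, rose from 3.83 ± 0.158 to 5.92 ± 0.822 CPM (0.63 ± 0.10, adjusted p = 0.000768). Slc13a3, a dicarboxylate transporter of the plasma membrane, fell from 3.76 ± 0.191 to 1.95 ± 0.461 CPM (-0.95 ± 0.16, adjusted p = 0.000832).

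Mitochondrial genes outside the cycle were counted for comparison. Of 14 general mitochondrial genes 8 rose, 1 fell and 5 did not pass. Their median was 0.10, close to the 0.09 of the other cycle enzymes. The share called was 64.3%, against 29.1% of all tested genes. Slc25a4, the ADP/ATP carrier, rose by 0.28 ± 0.04 (edgeR adjusted p = 0.000402), the chaperonin Hspd1 by 0.18 (adjusted p = 0.00768) and the protease Lonp1 by 0.14 (adjusted p = 0.0183). The mitochondrial DNA-binding factor Tfam fell by 0.18 on the log2 scale (adjusted p = 0.0211), a call lost without WT 4 or KO 2 (0.0538 to 0.0704) and with library totals, where it was at -0.060 (0.391). The channel Vdac1 (0.12, adjusted p = 0.0257) and the import pore Tomm40 (0.14, adjusted p = 0.0383) rose. The Vdac1 call was lost without KO 2 or KO 5 (0.0566 to 0.0589). The Tomm40 call was lost without any 1 of WT 2, WT 4 or the 5 KO libraries (0.0510 to 0.0753). Slc25a3 (0.05, adjusted p = 0.323) and Vdac2 (-0.0024, adjusted p = 0.973) did not pass. The count of 9 calls was 4 without KO 2 and 5 without KO 5, and with library totals it was 11, all higher. In that order the shares were 28.6%, 35.7% and 78.6%, against 26.5%, 25.8% and 38.7% of all genes. The share of counts from mitochondrially encoded genes was 1.40% in WT and 1.54% in KO (exact permutation p = 0.0476, adjusted 0.0952 over 4 library measures).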

How the data were processed

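RNA-seq was analysed from 10 libraries of LPS- and ATP-treated mouse macrophages, 5 WT and 5 KO. The table the authors deposited holds whole-number gene counts for each library. It also holds FPKM made by the authors, per the file headers, used here only for WT to recover the gene length (8318 genes with at least 200 counts in every WT library, largest relative spread 4.5e-06). The 5 FPKM columns headed SI were not used. CASAVA 1.8, TopHat2 2.0.6 and the builds mm10 and GRCm39 are named without a role, per the submitters' processing notes. Not given in the sources used here were the counter, annotation and strand setting, so overlapping or antisense genes cannot be separated. Gene coordinates are as the table lists them, and 0 of 9 members had the same position in a GRCm38 annotation. Exons were therefore not looked up at those positions, only in the printed GRCm38 promoter windows.

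Counts were tested with edgeR 4.0.16 in R 4.3.3 (TMM, filterByExpr with a minimum count of 10, quasi-likelihood F test) as KO minus WT. P-values of the 14436 genes that passed the filter, with 99.87% of counts, were adjusted together by Benjamini-Hochberg. The SE is the absolute log2 fold change divided by the square root of F. The biological coefficient of variation was 12.8%. Of 145 symbols on several identifiers, the identifier with the highest count was kept. The chi-square per gene was 9.93 to 19.7 between libraries of a genotype and 40.5 to 58.4 between genotypes, so no library was a duplicate. The procedure was tested on simulated data.

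The members and lists were chosen with earlier results of these data known, and 1 gene is not reported here. Named were the 9 members, and of each pathway list up to 6 called genes with the smallest p and the 2 most abundant genes not called; the nearest 5 genes to Acod1 and the nearest 1 to each other member were named by pattern. The rule also named the 2 most abundant genes of each marker list, but these lists are given as sums and counts, with few genes named.

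Alternatives were DESeq2-type size factors, library totals, at least 50 counts in 5 libraries, no filter, robust edgeR, DESeq2 1.42.0, limma-voom 3.58.1, a replicate block, each library left out in turn, and fits without KO 1 and KO 2 or KO 1 and KO 3.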

Additional observations from a re-analysis of the deposited data

Results flagged for a closer look

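Among 130 groups of 5 libraries (65 genes in each genotype), 8 groups, or 6.15%, had 1 library far from the rest by Dixon's criterion, a share that chance alone puts near 5%. In WT 3, Idh1 stood at 126 CPM, with the other WT libraries at 85.2 to 89.5 CPM. Slc25a1 in KO 4 stood at 93.1 CPM, above 79.5 to 81.1 CPM in the other KO libraries. KO 1 was the low library for 2 genes: Fh1 at 34.4 CPM (others 37.4 to 38.5) and Pcx at 32.9 CPM (others 36.7 to 37.95). In WT 4, Mpc2 stood at 28.7 CPM, below 34.2 to 35.1 CPM in the others. Scd2 in WT 2 stood at 36.7 CPM, below 86.0 to 97.7 CPM in the others. Slc1a5 in WT 1 stood at 44.5 CPM, above 40.0 to 41.0 CPM (39.99 at the lowest), and Nfe2l2 in WT 5 at 395 CPM, above 362 to 369 CPM. The 65 genes are members and genes named by rule from the pathway lists and by pattern.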

How the results depend on the processing

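Of 180 values of the 9 genes under the alternatives, 173 kept their direction and their side of the threshold. Acod1, Idh1, Idh2, Idh3a and Mdh2 kept theirs in all 20, with adjusted p up to 0.021 for Idh3a and 0.0249 for Mdh2. Library totals brought Cs to 0.17, Ogdh to 0.19 and Acly to 0.17, all called. They raised the calls to 8 of the 9 genes, 9 other cycle enzymes, 8 pyruvate entry genes and 10 glutamine and shuttle genes. Over all genes the share called went from 29.1% to 38.7%. With the filter of 50 counts in 5 libraries it was 35.0%. The calls were then 55.6% of the 9 genes, 38.5% of other cycle enzymes and 50% of pyruvate entry genes. Citrate use was at 55.6%, glutamine and shuttles at 46.2%, itaconate-linked genes at 54.5% and general mitochondrial genes at 64.3%. Without KO 1 and KO 3, Ogdh was at 0.15 and Acly at 0.11, both called. With 1 library left out, Ogdh ranged from 0.054 to 0.13 (called without KO 1) and Slc25a1 from -0.0013 to 0.11. The calls then ranged from 3 to 6 for citrate use (30% to 60%, with 30% without WT 3 or WT 5). For glutamine and shuttles they ranged from 3 to 6 (23.1% to 46.2%), and for general mitochondrial genes from 4 to 9 (28.6% to 64.3%). Of all genes, 25.7% to 28.0% were called with 1 library left out. General mitochondrial genes had 5 calls (35.7%) without KO 1 and KO 3, against 28.3% of all genes. Without KO 1 and KO 2 those genes had 4 calls (28.6%), against 24.1% of all genes.

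With the replicate number as a block, calls were 3 for other cycle enzymes (23.1%) and 3 for citrate use (30%). They were 3 for glutamine and shuttles (23.1%) and 4 for general mitochondrial genes (28.6%). The block left 5 of the 9 genes called and 3780 (26.2%) of all genes. Among named pathway genes, calls were lost for Sdhc (edgeR adjusted p = 0.0541), Aco1 (0.0670), Pdha1 (0.0609), Acss2 (0.0559) and Me1 (0.0758). Got2 (0.0789), Slc25a10 (0.0839), Vdac1 (0.0550) and Tomm40 (0.0753) lost theirs too, and Mpc2 gained one (0.0454). The labels do not tie SI numbers to samples, and deviations of same-numbered libraries correlated between -0.11 and 0.18. Only the WT 1 and WT 5 deviations were closest to those of the KO library of the same number.

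Among 64 other genes, 1164 of 1280 values kept direction and side, 57 lost and 26 gained a call, and 33 reversed, all for genes not called with TMM scaling. With library totals Idh3b was at 0.11, Dld at 0.059, Gclm at 0.10, Lyz2 at 0.061 and Vdac2 at 0.11 (adjusted p = 0.031). Without a filter Idh3b was at 0.018, Gclm at 0.0036 and Vdac2 at 0.022, and with the 50-count filter Idh3b was at 0.0035 and Vdac2 at 0.0086. Without KO 1 and KO 3 Idh3b was at 0.023, Gclm at 0.0034, Nqo1 at -0.034 and Vdac2 at 0.0076, and without KO 1 and KO 2 Idh3b was at 0.010 and Vdac2 at 0.016. With 1 library left out Idh3b ranged from -0.018 to 0.026, Idh3g from -0.024 to 0.065, Dlst from -0.022 to 0.15, Gclm from -0.071 to 0.050 and Vdac2 from -0.020 to 0.019. Apart from fewer libraries or genes tested, the cause of these changes was not tested. Counting noise limits Clybl and Slc13a3 most, at under 6 CPM.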
